A study of Mus musculus with 6 samples.

Results

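Cyclic AMP signalling genes were described through the open chromatin regions assigned to 8 of them: the phosphodiesterase genes Pde4d, Pde4b, Pde4a, Pde3b and Pde7a, the adenylyl cyclase gene Adcy7, the prostaglandin receptor gene Ptger4 and the anchoring protein gene Akap13. A region counted for a gene when that gene was its nearest protein-coding gene interval within 100 kb, which gave 178 of 69171 merged regions. All 8 genes had at least 9 regions. The genes were chosen by their role together with earlier counts of called regions in these same libraries, among them the counts of Pde4d, so the differences between groups given here are descriptions and no test was made of them.

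ATAC-seq, which uses a transposase to tag accessible DNA, had been applied to cells sorted from bone marrow. The donors were naive Balb/c mice of the Adig line, which carries a GFP reporter of the autoimmune regulator Aire. The groups were pc-BMACs, which the series title counts among the antigen presenting cells of the marrow, sorted as AireGFP+B220-CD138+TACI+, plasma cells, sorted as AireGFP-B220-CD138+TACI+, and immature B cells, sorted as AireGFP-B220+CD138-TACI-IgM+, with 2 libraries each. Every group carried the reporter transgene, the labels name no treatment, and they state neither the animals' age nor whether the libraries of a group came from separate mice, so the spread between libraries may be technical. Each library used 2000 to 15000 sorted cells. The deposited files are peak lists with no read counts, so depth is unknown, and the absence of a call does not show that chromatin was closed.

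Cyclic AMP is made from ATP by adenylyl cyclases when receptors coupled to the stimulatory G protein are engaged, and it is broken down by phosphodiesterases. It acts mainly through protein kinase A, which anchoring proteins hold at particular places in the cell, and the kinase phosphorylates transcription factors such as Creb1. In lymphocytes, raised cyclic AMP is known to dampen signals of the antigen receptor.

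The lists differed in size, which bears on every count. The pc-BMAC lists held 38607 and 34070 peaks, the plasma cell lists 37821 and 36723 and the immature B cell lists 51643 and 46534. The pc-BMAC peaks covered 28.7 and 23.4 Mb, the plasma cell peaks 21.9 and 21.5 Mb and the immature B cell peaks 36.9 and 26.0 Mb. Of the 8 plasma cell marker genes, the pc-BMAC libraries had calls at 8 and 8, the plasma cell libraries at 8 and 8 and the immature B cell libraries at 8 and 7, so these calls did not set the groups apart. The 1 region of Aire was called in all 6 libraries. Regions of the 5 erythroid marker genes were called at 5 genes in plasma cells 1 and at 1 gene in every other library. Regions of the 8 B cell marker genes, 86 in all, were called 43 and 32 times in the pc-BMAC libraries, 49 and 49 times in the plasma cell libraries and 67 and 62 times in the immature B cell libraries. Of the regions of other marker genes, the libraries called 4 to 7 of 11 for T cells, 2 to 5 of 6 for NK cells, 3 to 5 of 11 for myeloid cells and 22 to 33 of 47 for plasmacytoid dendritic cells.

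Promoter sequences are printed because no genome sequence was at hand to show the Pde4d regions themselves. RefSeq (GRCm38.p6) listed 13 promoter windows for 6 of the 8 genes, taken here as the 250 bases before each start, and 5 of the 13 lay in no called region. Of the 8 windows that lay in a region, 7 lay in one called in all 6 libraries. How often the windows of all genes lie in a region was not counted, so these counts describe no trait of the 8 genes. Pde3b and Pde7a had no window in the table. The only listed window of Pde4d, chr13:108653927-108654176 on the + strand, was among the 5 without a region in any library. Starts of Pde4d that are not listed were not examined, so its regions may include promoters. Pde4a had 1 window in a region of all 6 libraries, 1 in a region that immature B cells alone had in both libraries, and 1 in no region. In the sequences, capitals mark matches of the motifs searched.
Pde4a, chr9:21183851-21184100, + strand, in a region of all 6 libraries: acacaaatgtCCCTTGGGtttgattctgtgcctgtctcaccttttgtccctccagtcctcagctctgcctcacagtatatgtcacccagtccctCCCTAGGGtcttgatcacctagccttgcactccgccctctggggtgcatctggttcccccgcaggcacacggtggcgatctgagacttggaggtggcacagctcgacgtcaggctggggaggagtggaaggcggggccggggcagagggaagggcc
Pde4a, chr9:21196455-21196704, + strand, in a region of both immature B cell libraries alone: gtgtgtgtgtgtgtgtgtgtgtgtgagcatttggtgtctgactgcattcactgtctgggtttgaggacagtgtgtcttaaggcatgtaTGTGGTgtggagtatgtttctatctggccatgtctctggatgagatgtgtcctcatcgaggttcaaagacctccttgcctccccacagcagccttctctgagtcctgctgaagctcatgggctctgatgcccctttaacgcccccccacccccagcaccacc
Pde4b, chr4:102569810-102570059, + strand, in a region of all 6 libraries: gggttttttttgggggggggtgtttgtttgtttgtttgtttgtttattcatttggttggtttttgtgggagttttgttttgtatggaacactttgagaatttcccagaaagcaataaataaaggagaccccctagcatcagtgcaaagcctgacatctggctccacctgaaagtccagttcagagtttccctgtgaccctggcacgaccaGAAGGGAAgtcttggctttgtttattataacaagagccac
Ptger4, chr15:5244188-5244437, - strand, in a region of all 6 libraries: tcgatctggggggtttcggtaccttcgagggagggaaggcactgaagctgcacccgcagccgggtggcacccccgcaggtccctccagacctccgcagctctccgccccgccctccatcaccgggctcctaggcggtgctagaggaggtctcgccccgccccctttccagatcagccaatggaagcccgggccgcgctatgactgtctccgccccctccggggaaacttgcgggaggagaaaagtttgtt

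The motifs were searched on both strands, with overlaps allowed. They were the cyclic AMP response element TGACGTCA, present in 1.55% of the 32851 promoter windows of the table, the AP-1 motif TGANTCA (6.75%), GAANNGAA of interferon regulatory factors (17.2%), the E box CAGCTG (13.0%), CCCNNGGG of early B cell factor (11.8%) and TGTGGT of Runx factors (14.0%). The window of Pde4a called in all 6 libraries held 2 matches of CCCNNGGG and the one called in immature B cells alone held 1 of TGTGGT. The Pde4b window held 1 of GAANNGAA, and the Ptger4 window held none of the 6. Not all windows are printed, and others held matches too. The Adcy7 window chr8:88288816-88289065 held 1 match each of TGANTCA and TGTGGT, and chr8:88293954-88294203 held 1 of CCCNNGGG. The Akap13 window held 1 of CAGCTG, as did that of Pde4d. None of the 13 windows of these genes held TGACGTCA, which says only that these letters are not there. The Ptger4 window was 66.8% G and C and that of Pde4d 38.8%, against a median of 52.4% over all windows.

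Pde4d encodes a phosphodiesterase specific for cyclic AMP. Of its 37 regions, pc-BMACs 1 had 7 and pc-BMACs 2 had 2, plasma cells 1 had 17 and plasma cells 2 had 18, and immature B cells 1 had 34 and immature B cells 2 had 31. The 3 groups did not overlap: the pc-BMAC libraries were lowest, the plasma cell libraries lay between and the immature B cell libraries were highest. This order also held per list size, with 1.85 and 0.610 Pde4d regions in every 10000 that a pc-BMAC library called, 4.75 and 5.15 for plasma cells and 6.64 and 6.92 for immature B cells. Peaks covered 2316 and 342 bp of the Pde4d regions in pc-BMACs, 5790 and 7680 bp in plasma cells and 18371 and 13276 bp in immature B cells.

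**Figure D1:**
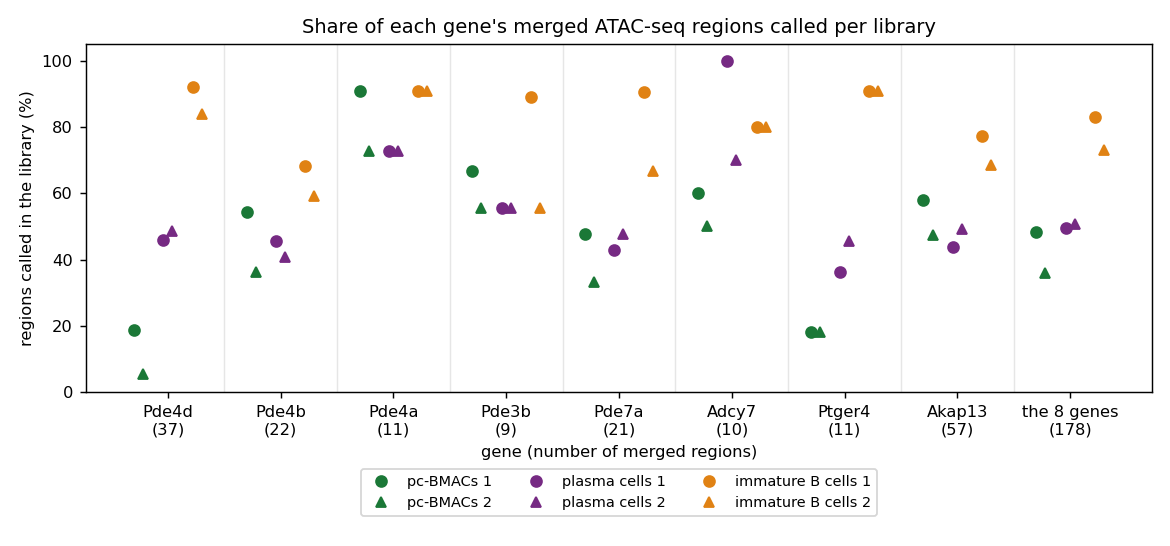
Percentage of each gene's merged regions (y axis) that was called in each of the 6 libraries, by gene and for all 178 regions; circles are the first and triangles the second library of a group. The pc-BMAC libraries sit at 18.9% and 5.41% for Pde4d and at 18.2% and 18.2% for Ptger4, below both other groups.

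The Pde4d regions were nested between the groups. Each of the 7 regions called in any pc-BMAC library was also called in all 4 libraries of the other groups, and pc-BMACs had 0 Pde4d regions that plasma cells lacked. Of the 20 regions called in a plasma cell library, 18 were shared with both libraries of immature B cells, and the other 2 were called in plasma cells 1 alone. Plasma cells and immature B cells alone had 8 of the 37 Pde4d regions (21.6%), each in all 4 of their libraries, against 4.88% of all regions with this pattern. Another 12 (32.4%) were called in immature B cells alone, against 14.3% of all regions. Only 2 Pde4d regions (5.41%) were called in all 6 libraries, against 29.6% of all regions. Of the 86 B cell marker regions, 6 were called in plasma cells and immature B cells alone, a pattern of 4.88% of all regions. The marker regions were likewise called least often in pc-BMACs and most often in immature B cells. Over all 69171 regions, pc-BMACs had 37828 and 32787 calls, plasma cells 35811 and 34939 and immature B cells 51243 and 44818. There too immature B cells had the most calls, while pc-BMACs and plasma cells overlapped. The part of the B cell markers in the Pde4d counts was not tested.

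**Figure D2:**
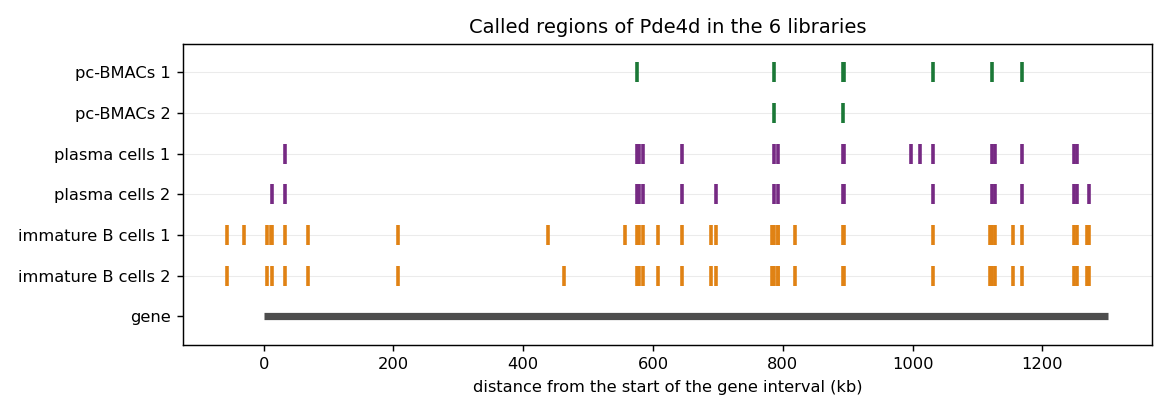
Map of the 37 Pde4d regions along the gene (x axis, kb from the start of the gene interval, which the bar at the bottom marks), with 1 row per library and a tick where the library called the region. The pc-BMAC rows have 7 and 2 ticks, the plasma cell rows 17 and 18 and the immature B cell rows 34 and 31.

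The Pde4d gene spans 1302 kb on chromosome 13 (chr13:108654177-109955969), and 35 of its regions overlapped the gene interval. None of the 37 lay within 1 kb of a gene end. The gene table holds no exons, so a region inside a gene is described as no more than that. The widest region that plasma cells and immature B cells had and pc-BMACs lacked, chr13:109902366-109904301, had 0 and 0 bp of peak in pc-BMACs, 716 and 1002 bp in plasma cells and 1936 and 1662 bp in immature B cells. A second, chr13:108685920-108687364, had 0 and 0 bp in pc-BMACs, 845 and 889 bp in plasma cells and 1445 and 1057 bp in immature B cells. Of the 2 regions called in all libraries, chr13:109440396-109441529 had 466 and 192 bp in pc-BMACs, 497 and 843 bp in plasma cells and 1134 and 881 bp in immature B cells. The pc-BMAC peaks covered the fewest base pairs there too. The 12 regions of immature B cells alone were narrow, with a median of 264.5 bp against 638.5 bp for the 8 shared with plasma cells, and the shortest peak in any list was 150 bp. Regions merged from the peaks of more libraries tend to be wider by construction. The nearest region beyond the limit of 100 kb, at 126 kb, was called in plasma cells and immature B cells alone, and the farthest one inside it, at 55.8 kb, in immature B cells alone.

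**Figure D3:**
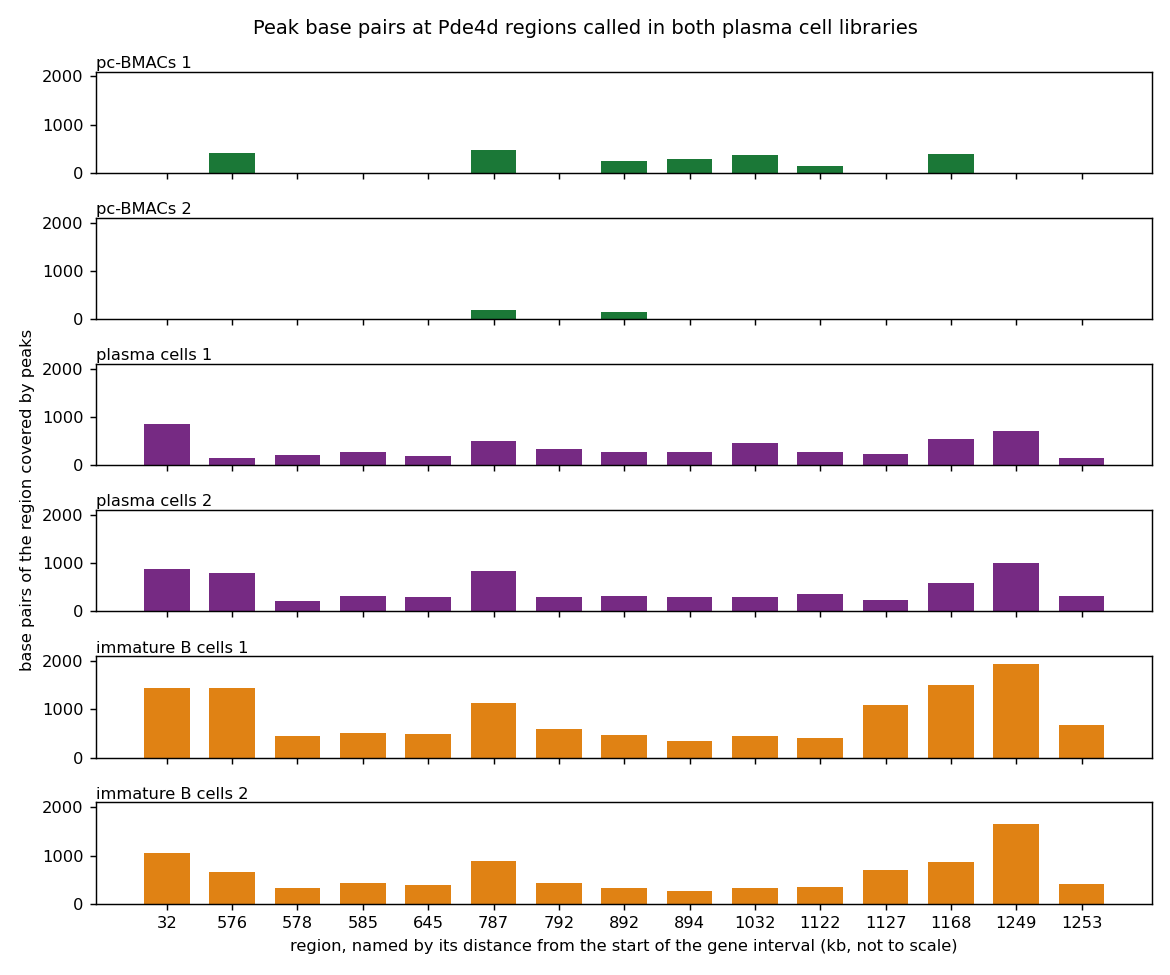
Base pairs covered by peaks (y axis, same scale in each panel) at the 15 Pde4d regions called in both plasma cell libraries, in order along the gene (x axis, kb from the start of the gene interval, not to scale), with 1 panel per library. Bars are present at 7 of the regions in pc-BMACs 1 and at 2 in pc-BMACs 2, and at all 15 in the other 4 libraries.

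A region is named group-only here when the 2 libraries of 1 group called it and those of the other did not. With a library left out, or with single libraries paired, fewer calls decide, so group-only counts can hardly fall. Their rise in those settings follows from the rule. Against plasma cells, pc-BMACs had 0 such regions at Pde4d, Ptger4 and Adcy7, where plasma cells had 8, 3 and 2. Of 120 regions of the 8 genes called in either group, 7 (5.83%) were pc-BMAC-only and 20 (16.7%) were plasma-cell-only, against 8.42% and 9.46% of all regions in this comparison. Away from gene ends, where 172 of the 178 regions lay, the share of plasma-cell-only regions over all genes was 11.5%. Pde4d held 8 of the 20, Akap13 5, Ptger4 3, Adcy7 2, and Pde4b and Pde7a 1 each. Of the 7 pc-BMAC-only regions, Akap13 held 5 and Pde4b and Pde4a 1 each. The plasma-cell-only count, 20 here, was 9 if a call needed 50% of the region covered and 7 with peaks of at least 300 bp. The pc-BMAC-only counts in these settings were 9 and 6, so the imbalance of the 8 genes together was no longer seen (9 against 9, and 6 against 7), while Pde4d had a net count (pc-BMAC-only minus plasma-cell-only) of -4 in each. The shares of all regions were not computed in these settings, which keep fewer narrow peaks. Median peak widths were 523 and 489 bp in pc-BMACs and 404 and 414 bp in plasma cells. Without pc-BMACs 2 the pc-BMAC-only count was 21, and without pc-BMACs 1 the net count of Pde4d was -13, against -8 with all libraries.

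The labels' descriptions give libraries an R number whose meaning is not stated, and each comparison has 1 pair of libraries that share it. In the pair of pc-BMACs 2 and plasma cells 1, the 8 genes had 11 regions in the pc-BMAC library alone and 35 in the plasma cell library alone, of 99, which is 11.1% and 35.4% against 15.4% and 22.6% of all regions of the pair. Pde4d had 0 and 15 of these. Plasma cells 1 was the library with called regions at all 5 erythroid marker genes, whose part in these counts was not tested. Without it the net count of Pde4d was -11. Leaving out a library loosens the group-only rule, so this value does not show what that library contributed.

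Against immature B cells, pc-BMACs had 9 pc-BMAC-only regions (5.23%) and 62 immature-B-only regions (36.0%) among 172, against 10.3% and 24.1% of all regions in this comparison. Away from gene ends 28.1% of all regions were immature-B-only. Pde4d held 23 of the 62, Akap13 14, Ptger4 9, Pde4b 6, Pde7a 6, Adcy7 3, Pde4a 1 and Pde3b 0. Without pc-BMACs 2 the pc-BMAC-only count was 18. In the pair of pc-BMACs 1 and immature B cells 1 with the same R number, 11.9% and 48.8% of the regions of the 8 genes were called in 1 library alone, against 17.6% and 39.2% of all regions.

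Between plasma cells and immature B cells, 7 of 166 regions (4.22%) were plasma-cell-only and 41 (24.7%) immature-B-only, against 6.35% and 19.0% of all regions. The share of all regions away from gene ends, where 172 of the 178 regions lay, was not computed for this comparison. In the 2 others it was above the share of all regions, at 11.5% against 9.46% and 28.1% against 24.1%. Akap13 held 13 of the 41, Pde4d 12, Ptger4 6, Pde4b 5, Pde7a 3 and Pde4a 2. With lists of equal length the net count of Pde4d was -3 here, in place of -12, and -14 for pc-BMACs against immature B cells, in place of -23. The count of 41 depended on list length and distance: it was 21 with the widest 34070 peaks of each list, 27 within 10 kb of the genes and 25 inside them, and 64 without immature B cells 2. Leaving out plasma cells 2 gave 12 plasma-cell-only regions, against 4 if a call needed 50% of the region covered, or peaks of at least 300 bp. The 2 libraries with a shared R number, plasma cells 2 and immature B cells 2, gave 5.80% and 34.8% for the 8 genes, against 12.5% and 31.8% for all regions.

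**Figure D4:**
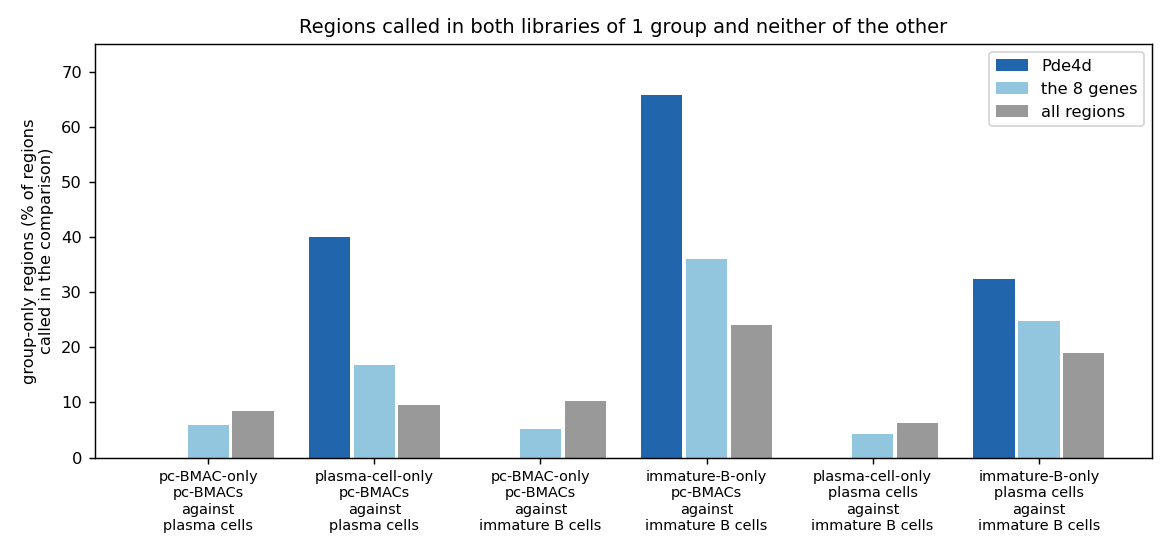
Percentage of the regions called in each comparison (y axis) that were group-only, for Pde4d, the 8 genes and all regions, with 1 set of bars per comparison and direction. Pde4d stands at 40.0% plasma-cell-only against pc-BMACs and 65.7% immature-B-only against pc-BMACs, beside 9.46% and 24.1% of all regions, and has no bar in the 3 directions where it had 0 such regions.

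Ptger4 encodes the receptor EP4 for prostaglandin E2, which couples to the stimulatory G protein. Of its 11 regions, 2 and 2 were called in the pc-BMAC libraries, 4 and 5 in the plasma cell libraries and 10 and 10 in the immature B cell libraries. The groups kept the same order as at Pde4d and did not overlap. This also held per 10000 called regions, with 0.529 and 0.610 for pc-BMACs, 1.12 and 1.43 for plasma cells and 1.95 and 2.23 for immature B cells. The gene is short (10.8 kb, chr15:5233399-5244187), and 8 of the 11 regions lay outside it, on which this order mostly rested. Counted inside the gene only, the net count of Ptger4 was -1 for pc-BMACs against plasma cells, in place of -3, and 0 for both groups against immature B cells, in place of -8 for pc-BMACs and -6 for plasma cells; within 10 kb all 3 were -1. The region over its start, chr15:5243561-5245056, was called in all 6 libraries with 1306 and 1081 bp of peak in pc-BMACs, 1301 and 1281 bp in plasma cells and 1496 and 1387 bp in immature B cells. There pc-BMACs and plasma cells overlapped, and the peaks of both immature B cell libraries covered the most base pairs. At 16.8 kb from the gene interval, chr15:5260966-5263543 had 0 and 0 bp in pc-BMACs, 1324 and 1599 bp in plasma cells and 2562 and 1389 bp in immature B cells.

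The other Ptger4 regions followed 2 patterns, apart from a single one. Plasma cells and immature B cells alone had 3 of the 11, of which 1 lay inside the gene, and immature B cells alone had 6, all of them between 2.15 and 68.0 kb outside it. The single exception, chr15:5241524-5242813 inside the gene, was called with 879 and 609 bp in pc-BMACs and with 0 and 1290 bp in plasma cells, and had 0 and 0 bp in immature B cells. Plasma cells 1 and 2 disagreed at it. The first region beyond the limit of 100 kb, at 118 kb, was called in a single library.

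Adcy7 encodes an adenylyl cyclase, a maker of cyclic AMP that is prominent in lymphocytes. Its 10 regions were called 6 and 5 times in the pc-BMAC libraries, 10 and 7 times in the plasma cell libraries and 8 and 8 times in the immature B cell libraries. The pc-BMAC counts were below the others, while plasma cells and immature B cells overlapped. Per 10000 called regions, with 1.59 and 1.52 for pc-BMACs, 2.79 and 2.00 for plasma cells and 1.56 and 1.78 for immature B cells, pc-BMACs and immature B cells overlapped as well. All 3 listed Adcy7 promoters lay in regions of all 6 libraries. Both plasma cell and immature B cell groups, but not pc-BMACs, had regions at chr8:88308443-88310538, with 0 and 0 bp of peak in pc-BMACs, 1015 and 1014 bp in plasma cells and 2096 and 1289 bp in immature B cells, and at chr8:88300062-88300635, with 0 and 0 bp in pc-BMACs, 150 and 150 bp in plasma cells and 570 and 513 bp in immature B cells. At the smaller of these the plasma cell peaks were at the shortest width in the lists. Another region that pc-BMACs lacked, chr8:88289905-88290812, lay between 2 of the promoters and had 0 and 0 bp in pc-BMACs, 852 and 0 bp in plasma cells and 908 and 724 bp in immature B cells. The net count of Adcy7 in pc-BMACs against plasma cells, -2 as reported, was 1 if a call needed 50% of the region covered, 0 with peaks of at least 300 bp, -1 with lists of equal length, -4 without plasma cells 2 and -5 in the pair with a shared R number.

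**Figure D5:**
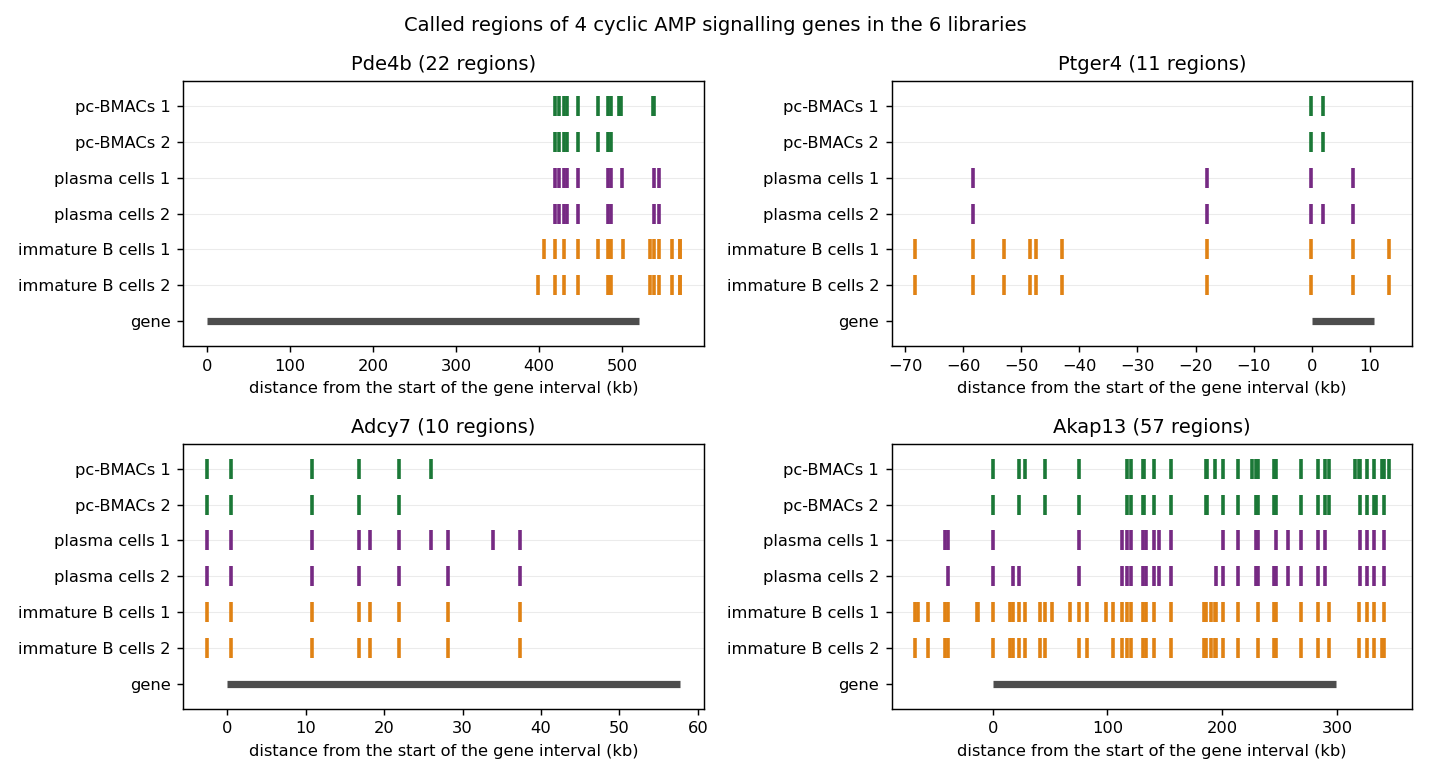
Maps of the regions of Pde4b, Ptger4, Adcy7 and Akap13 (x axis, kb from the start of the gene interval in the gene's direction; the bar marks the gene), with 1 row per library and a tick where it called the region. Ptger4 has 2 ticks in each pc-BMAC row and 10 in each immature B cell row, while Akap13 has 33 and 27 in the pc-BMAC libraries, 25 and 28 in the plasma cell libraries and 44 and 39 in the immature B cell libraries.

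Pde4b encodes a phosphodiesterase of the same family as Pde4d, and its regions were arranged differently. Of 22 regions, 12 and 8 were called in the pc-BMAC libraries, 10 and 9 in the plasma cell libraries and 15 and 13 in the immature B cell libraries. Here pc-BMACs and plasma cells overlapped. Per 10000 called regions the values were 3.17 and 2.44 for pc-BMACs, 2.79 and 2.58 for plasma cells and 2.93 and 2.90 for immature B cells. By that measure the immature B cell values lay between those of the pc-BMAC libraries. All regions inside the 520 kb gene lay in its last part, from 399.0 kb onwards. There, 2 wide regions were called in pc-BMACs and plasma cells alone, a pattern of 3.66% of all regions. One of them, chr4:102510883-102511906, had 1024 and 916 bp of peak in pc-BMACs, 751 and 321 bp in plasma cells and 0 and 0 bp in immature B cells. The other, chr4:102520527-102521603, had 1077 and 820 bp in pc-BMACs, 773 and 390 bp in plasma cells and 0 and 0 bp in immature B cells. In both, the pc-BMAC peaks covered more base pairs than those of either plasma cell library.

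Immature B cells alone had 5 other Pde4b regions, 4 of them outside the gene at 13.8 to 49.9 kb. Counted over the gene interval only, or within 10 kb, the net count of Pde4b was 1 for pc-BMACs against immature B cells, in place of -4, and 1 for plasma cells against immature B cells, in place of -3. Both were also 1 with peaks of at least 300 bp and with lists of equal length, so the direction at Pde4b depended on the settings. Among its regions of all 6 libraries, chr4:102568498-102571256 held the listed start whose sequence is printed above, and the windows of its 3 other listed starts lay in no region.

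Akap13 encodes an anchoring protein of protein kinase A, and it had most regions of the 8 genes. Its 57 regions were called 33 and 27 times in the pc-BMAC libraries, 25 and 28 times in the plasma cell libraries and 44 and 39 times in the immature B cell libraries. The pc-BMAC and plasma cell libraries overlapped, and per 10000 called regions the values were 8.72 and 8.23 in the pc-BMAC libraries, 6.98 and 8.01 in the plasma cell libraries and 8.59 and 8.70 in the immature B cell libraries. All 6 libraries called 16 of the regions. Among these was the widest region of the 8 genes, chr7:75608622-75613747, with 4997 and 3804 bp of peak in pc-BMACs, 2418 and 2177 bp in plasma cells and 2326 and 1370 bp in immature B cells. Peaks covered more of it in both pc-BMAC libraries than in any other library.

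Akap13 also held regions of every pattern. Of its 57 regions, 3 were called in pc-BMACs and plasma cells alone, 2 in pc-BMACs alone and 2 in plasma cells alone. Of all regions, 3.66%, 4.42% and 1.50% had these patterns, in the same order. Counts this small describe no trait of Akap13. The pc-BMACs-alone region chr7:75587494-75588130 had 637 and 242 bp in pc-BMACs and 0 bp in the 4 other libraries. Next to it, chr7:75588880-75590034 showed the opposite, with 0 and 0 bp in pc-BMACs, 486 and 538 bp in plasma cells and 1155 and 785 bp in immature B cells. The 2 plasma-cells-alone regions were 278 and 197 bp wide. With pc-BMACs 2 left out, Akap13 had a net count of 7 in favour of pc-BMACs against plasma cells, against 0 with all libraries.

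Pde4a, Pde3b and Pde7a encode further phosphodiesterases that break down cyclic AMP. At Pde4a, with 11 regions, the pc-BMAC libraries called 10 and 8, the plasma cell libraries 8 and 8 and the immature B cell libraries 10 and 10, and 7 regions were common to all 6. Its 1 pc-BMACs-alone region, chr9:21181419-21181933, had 515 and 368 bp in pc-BMACs and 0 bp elsewhere. At Pde3b, with 9 regions, the pc-BMAC libraries called 6 and 5, the plasma cell libraries 5 and 5 and the immature B cell libraries 8 and 5. The groups overlapped at Pde3b, where 5 regions were common to all libraries and each of the 4 others was called in a single library.

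Pde7a had 21 regions, of which 10 and 7 were called in the pc-BMAC libraries, 9 and 10 in the plasma cell libraries and 19 and 14 in the immature B cell libraries. Both immature B cell libraries were above the rest, and pc-BMACs and plasma cells overlapped. Per 10000 called regions, pc-BMACs had 2.64 and 2.13, plasma cells 2.51 and 2.86 and immature B cells 3.71 and 3.12. The same order held by that measure. With lists of equal length the net count of Pde7a was 0 for plasma cells against immature B cells, in place of -3. For pc-BMACs against immature B cells it was -3, in place of -6. More than the other phosphodiesterase genes, Pde7a had regions outside the gene, 11 of 21, up to 75.1 kb away. Its 1 region that plasma cells and immature B cells had and pc-BMACs lacked, chr3:19258479-19259002, had 0 and 0 bp of peak in pc-BMACs, 293 and 306 bp in plasma cells and 524 and 398 bp in immature B cells. Its net count against plasma cells, -1 with all libraries, was 1 without pc-BMACs 2.

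Over all 178 regions, 86 and 64 were called in the pc-BMAC libraries, 88 and 90 in the plasma cell libraries and 148 and 130 in the immature B cell libraries, and per 10000 called regions the values were 22.7 and 19.5 for pc-BMACs, 24.6 and 25.8 for plasma cells and 28.9 and 29.0 for immature B cells. All 6 libraries had 46 of the regions (25.8%), immature B cells alone 35 (19.7%), plasma cells and immature B cells alone 18 (10.1%) and pc-BMACs and plasma cells alone 5 (2.81%). Of all regions, 29.6%, 14.3%, 4.88% and 3.66% had these patterns, in the same order. Regions of all 6 libraries were wide, with a median of 1247 bp, against 396 bp for those of immature B cells alone, and over all genes the medians were 1152 and 321 bp. The regions of all 6 libraries were thus the wider ones, at these genes as elsewhere. A merged region spans every peak that overlaps in it, so regions called in more libraries tend to be wider by construction.

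Pde4d, with 37 regions, was compared with all genes that had at least 20. Of the 353 genes with at least 20 regions, 7 had a lower mean share of regions called in pc-BMACs than the 12.2% of Pde4d, and the median was 52.5%. By the Euclidean distance between the shares of regions called in the 6 libraries, the genes nearest to Pde4d included Tmem108 (0.108), Zfp608 (0.215), Mctp2 (0.231) and Itga9 (0.255). Tmem108 had 29 regions, of which 4 and 3 were called in the pc-BMAC libraries, 13 and 16 in the plasma cell libraries and 27 and 23 in the immature B cell libraries. The other members with at least 20 regions were farther from Pde4d, Pde7a at 0.437 (rank 49 of 352), Pde4b at 0.588 (rank 115) and Akap13 at 0.611 (rank 126).

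The wider pathway was counted over 71 further genes of cyclic AMP signalling, of which 70 were in the gene table and 65 had a region, 448 in all. In the comparison of pc-BMACs with plasma cells, 27 of these regions were pc-BMAC-only while 31 were plasma-cell-only, which is 8.60% and 9.87% of the 314 called in it, close to the 8.42% and 9.46% of all regions. By gene, 10 had more pc-BMAC-only and 14 more plasma-cell-only regions. Against immature B cells, 10.2% of its regions were pc-BMAC-only and 28.6% immature-B-only, beside 10.3% and 24.1% of all regions and 28.1% immature-B-only away from gene ends.

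Within that list and the comparison with plasma cells, the receptors had 37 regions, with 0 pc-BMAC-only and 6 (16.2%) plasma-cell-only ones, beside 8.42% and 9.46% of all regions. These are small counts and were not tested. Vipr1, a receptor of vasoactive intestinal peptide, had 3 regions, of which 0 and 0 were called in the pc-BMAC libraries, 3 and 3 in the plasma cell libraries and 3 and 3 in the immature B cell libraries. Its relative Vipr2 had 2 plasma-cell-only regions of 5. Phosphodiesterases outside the 8 had 3 pc-BMAC-only regions (6.38% of 47), against 6 plasma-cell-only ones (12.8%): Pde2a had 3 plasma-cell-only regions and Pde10a 2, while Pde1b had 2 pc-BMAC-only regions. Pde10a was called 0 and 0 times in the pc-BMAC libraries, 4 and 3 times in the plasma cell libraries and 9 and 9 times in the immature B cell libraries.

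Transcription factors, coactivators and targets had 86 regions in this comparison, with 15 (17.4%) pc-BMAC-only and 5 (5.81%) plasma-cell-only ones, beside the same shares of all regions, 8.42% and 9.46%. Most were at Sik3, with 7 and 1, and Sik1, with 6 and 3, which encode salt-inducible kinases that protein kinase A inhibits, and at Crtc3, a coactivator of Creb1, with 2 and 0. Sik3 had 31 regions, called 24 and 17 times in the pc-BMAC libraries, 10 and 11 times in the plasma cell libraries and 15 and 12 times in the immature B cell libraries. Among the anchoring proteins Akap12 had 3 plasma-cell-only and Akap7 2 pc-BMAC-only regions. The kinase inhibitor Pkib and Rapgef4, an exchange factor that cyclic AMP activates, had 2 plasma-cell-only regions each. Abcc4, Rapgef3 and Pkig had 1 region in each direction. No region was assigned to Ptgdr, Gnai1, Adcy1, Pde3a or Pkia.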

How the data were processed

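The deposited files hold 1 ATAC-seq peak list per library, with 5 columns, no header and a score of 1000 in every row, per the files as the authors deposited them; the score ranked nothing and was not used. Per the submitters' processing notes, Bowtie2 2.3.3, HOMER 4.10, bedtools and mm10 were used; their roles and the peak settings were not given in the sources used here. Peaks of the 6 lists overlapping by at least 1 bp were merged, a library had a region when a peak overlapped it, and regions went to the nearest protein-coding interval of RefSeq (GRCm38.p6, the assembly mm10 names) within 100 kb, which placed 94.5%. Ties went to the gene covering most of the region, then to the shorter gene. Library groups came from the sample titles. Merging, calling and assignment were checked on simulated intervals with known answers (Python 3.11.15). Members, the wider list and the markers were chosen with earlier results of these data known. Named genes were the 8 members, genes of the wider list with at least 2 group-only regions, both directions summed, in pc-BMACs against plasma cells or with no region, and the 5 genes nearest to Pde4d, of which 1 is not reported here. Akap2 was not in the gene table under that symbol. Regions outside the lists and exons were not analysed here.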

Additional observations from a re-analysis of the deposited data

How the results depend on the processing

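No paired analysis was possible because the counts come from no test, so no replicate block could be fitted; single pairs of libraries sharing an R number were set side by side instead. Nearest start sites were not used, as the gene table gives no strand and the promoter table lists no start for Pde3b and Pde7a. For pc-BMACs against plasma cells, 20 plasma-cell-only regions of the 8 genes became 9 if a call needed 50% of the region covered. They became 7 with peaks of at least 300 bp, and the pc-BMAC-only ones were 9 and 6 in these settings. Leaving out 1 library, or pairing single libraries, loosens the group-only rule, so counts can hardly fall and a rise follows from the rule. Leaving out 1 library gave 8 to 21 pc-BMAC-only regions in place of 7. For pc-BMACs against immature B cells, it gave 10 to 18 pc-BMAC-only regions in place of 9. For plasma cells against immature B cells, it gave 7 to 12 plasma-cell-only regions in place of 7 and 44 to 64 immature-B-only regions in place of 41. That count was 21 with the widest 34070 peaks of each list, 27 within 10 kb and 25 inside the genes, and the count of 7 was 4 with 50% coverage and 4 with 300 bp. The pairs with a shared R number, an alternative chosen after seeing the data, gave 11 regions of pc-BMACs only against 35 of plasma cells only, and against immature B cells 20 of pc-BMACs only.

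By gene, 173 of 264 net counts stayed within 1.5 times the reported value, 81 moved further and 10 changed sign. Adcy7 was 1 with 50% coverage (pc-BMACs against plasma cells), Pde7a ranged from -2 to 1 when 1 library was left out, and Pde4b was 1 against immature B cells, for pc-BMACs and for plasma cells, with the widest peaks, with 300 bp, within 10 kb and inside the gene. Pde4d kept its sign in every setting run but not its size: with lists of equal length it was -3 in place of -12 for plasma cells against immature B cells and -14 in place of -23 for pc-BMACs against immature B cells. The causes were not tested. Without depths, a narrow region missed in a library cannot be told apart from a closed one.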
